A study of Mus musculus with 24 samples.

Results

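The filanesib by pomalidomide interaction was measured over all 24 arrays of the series, 3 in each of 8 groups, in human myeloma tumours grown in mice. For each gene it is the change that filanesib made where pomalidomide was present minus the change it made where pomalidomide was absent, averaged over the arrays without and with dexamethasone. Group means of log2 levels entered it, so a value of 0 means that the fold changes of the 2 drugs multiplied, and a positive value that the pair lay above that product. Genes were those to which the probe table gave a single symbol, with the probe set of highest mean level standing for each: 14884 genes, from 16098 named probe sets of 53617 on the array. All groups were subcutaneous plasmacytomas of MM.1S, an established human multiple myeloma line, which had been injected with Matrigel into the flank of CB17-SCID mice, a strain without functional T and B cells. The control group carried the same tumours and was given the PBS vehicle, per the labels' protocols. Filanesib was given at 10 mg/kg, pomalidomide at 8 mg/kg and dexamethasone at 0.5 mg/kg, each intraperitoneally for 2 days. The groups were control, the 3 drugs singly, filanesib plus pomalidomide, filanesib plus dexamethasone, pomalidomide plus dexamethasone, and the triple combination. The labels do not say that each array came from a separate mouse, so the spread behind the p-values is that between these samples and may be technical in part.

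Filanesib inhibits the kinesin KIF11, the motor that pushes the spindle poles apart, and cells held by it arrest in mitosis with a single-poled spindle. Pomalidomide binds cereblon, the substrate receptor of a ubiquitin ligase, and redirects it to the lymphoid transcription factors Ikaros (IKZF1) and Aiolos (IKZF3), whose loss lowers IRF4 and MYC and releases interferon-stimulated genes in myeloma cells. Dexamethasone activates the glucocorticoid receptor. The series asked how inhibition of the kinesin adds to the activity of pomalidomide and dexamethasone, and the interaction says for which transcripts the pair gave more or less than its parts.

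The array carried probes for human genes, although mouse is the organism in the labels, so levels are those of the human tumour cells plus any mouse RNA that cross-hybridised. Of 16 measured genes of plasma cell and myeloma identity, 14 lay above the median gene, at 4.78 on the log2 scale. Markers of host cells did so for 2 of 8 macrophage, 1 of 8 endothelial, 1 of 4 fibroblast, 2 of 4 smooth muscle, 1 of 5 adipocyte, 2 of 2 skeletal muscle and 0 of 5 keratinocyte genes. The 3 arrays of pomalidomide alone stood apart in spread: their residual SD over genes was 0.232, 0.193 and 0.288 (replicates 1 to 3), against 0.127 to 0.180 in the other 21 arrays. The levels of pomalidomide alone enter the estimates of the interaction without dexamethasone and of the average, and not that of the interaction with dexamethasone. Their spread enters the standard errors of all of these, because the residual variance of each gene was pooled over all groups.

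No gene passed the test for the averaged interaction. limma called 0 of 14884 genes (0%) at an adjusted p under 0.05, and the smallest adjusted p was 0.342. At an unadjusted p under 0.05 there were 996 genes (6.69%), 546 positive (3.67%) and 450 negative (3.02%), and array weights, which discount noisy arrays, called 1 gene, the microRNA gene MIR4453. The design set a limit on what could be seen, with a median standard error (SE) of 0.14 per gene. For 12694 genes, or 85.3%, the 95% confidence interval lay wholly within 1.5-fold of no interaction in either direction. Values below are therefore mostly descriptions of genes that did not pass, and averaged interactions are given as the log2 value ± SE of the model. Genes were named by a rule, apart from a few chosen outside it. The rule took the 15 with the smallest p in each direction, and up to 2 members of each gene list with an unadjusted p under 0.05. It also took those with the smallest p for the difference between the interactions with and without dexamethasone, and a set series of genes. The genes it gave had an adjusted p in limma for the average between 0.342 and 0.997.

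Taken separately, the effects of each drug with and without the other share no array, and most called genes had the same sign in both. Over all genes the sign was the same for 54.7% with filanesib and 57.4% with pomalidomide. Filanesib beside pomalidomide raised 109 genes (0.732%) and lowered 20 (0.134%; 129 called in limma, 0.867%), while filanesib in the absence of pomalidomide raised 1 gene (0.00672%; 958 genes, 6.44%, had an unadjusted p under 0.05). That gene was CDC20, which switches on the anaphase-promoting complex. Of the 129 genes, 116 had the same sign without pomalidomide, with a median size of 0.54 beside it and 0.26 without it. Pomalidomide in the absence of filanesib raised 84 genes (0.564%) and lowered 119 (0.8%; 203 called, 1.36%). Beside filanesib it raised 111 (0.746%) and lowered 64 (0.43%; 175 called, 1.18%). The comparisons called 62 genes in common, which is a share of 30.5% of the former and 35.4% of the latter. Of the 203 genes, 190 kept the sign beside filanesib (median size 0.50 and 0.33), and of the 175 genes, 164 had the same sign without filanesib (0.52 and 0.36). The choice of genes by a call favours a larger size in the setting of that call. These medians, for either drug, therefore do not show a difference between settings. Over all genes the Pearson correlation across genes was 0.24 for the pair of filanesib effects and 0.43 for the pair of pomalidomide effects. Genes are not independent, and each pair used a common set of probes. That a call stood in one setting and not in the other did not show a difference: the interaction is the test of it, and it called none of these genes.

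**Figure D1:**
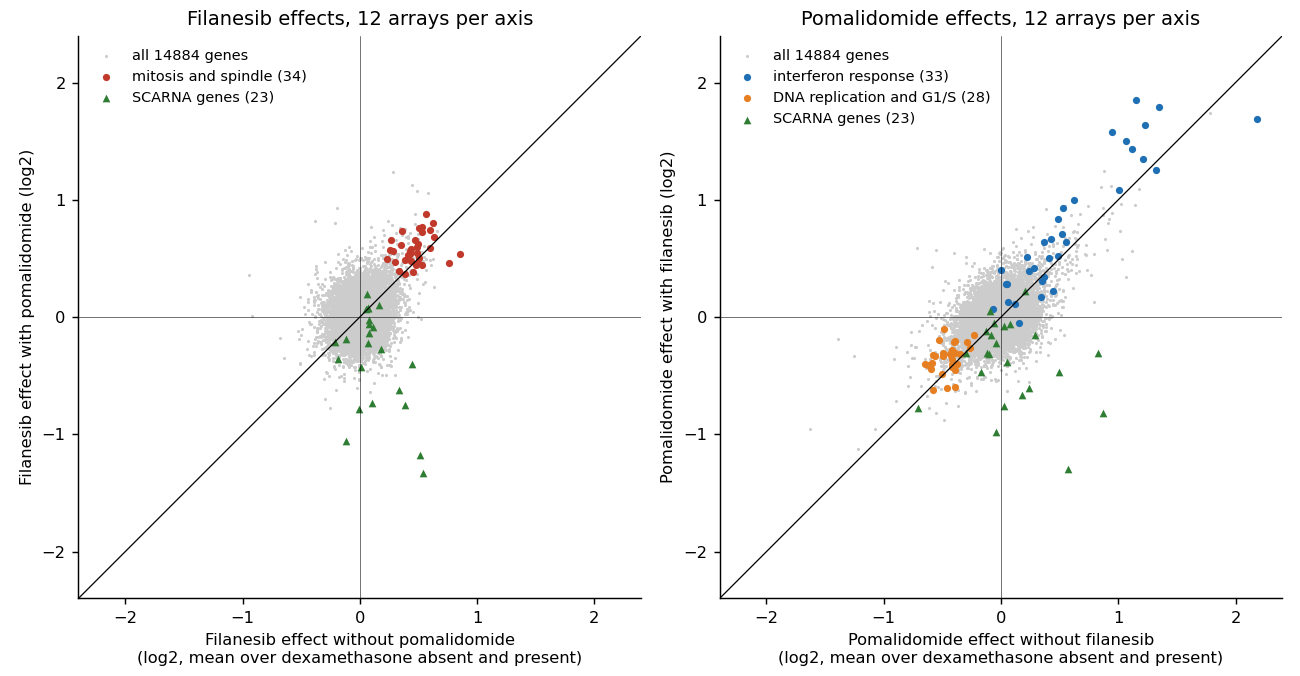
Each point is 1 of 14884 genes, at its log2 effect of filanesib without (x) and with (y) pomalidomide on the left, and at its log2 effect of pomalidomide without (x) and with (y) filanesib on the right, each averaged over dexamethasone absent and present. The diagonal marks no interaction. Mitotic genes (red) and interferon genes (blue) lie near or slightly above it, while several small Cajal body RNA genes (green, SCARNA) lie far below it. A gene's vertical distance from the diagonal is its averaged interaction, so it is the same in both panels.

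The counts of drug effects depended on single arrays. Without 1 array, the count for filanesib in the absence of pomalidomide was 0 (control replicate 2), 2 (control replicate 3), 54 (filanesib replicate 2), 5 (dexamethasone replicate 2), 6 (filanesib plus dexamethasone replicate 2), 3 (replicate 2 of the triple combination), and 11, 3 and 16 (pomalidomide replicates 1, 2 and 3). The count beside pomalidomide was 227, 330 and 71 without pomalidomide replicates 1, 2 and 3, 64 and 69 without replicates 1 and 3 of filanesib plus pomalidomide, 81, 75 and 68 without replicates 1, 2 and 3 of pomalidomide plus dexamethasone, and 60 and 67 without replicates 2 and 3 of the triple combination. For pomalidomide in the absence of filanesib, the count was 105 and 121 without control replicates 1 and 3, 127 without dexamethasone replicate 2, 488 without pomalidomide replicate 2 and 101 without replicate 1 of pomalidomide plus dexamethasone. Beside filanesib it was 75 and 99 without filanesib replicates 1 and 3, 271 without pomalidomide replicate 3, 105 and 91 without replicates 2 and 3 of filanesib plus dexamethasone, 89 and 91 without replicates 1 and 3 of filanesib plus pomalidomide, and 81 without replicate 1 of the triple combination.

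Small Cajal body RNAs gave the most negative interactions. These short noncoding RNAs sit in Cajal bodies, where they guide the chemical modification of spliceosomal RNAs, and most are cut from introns of host genes. SCARNA10 had the smallest p of all genes, with -1.14 ± 0.23 (unadjusted p = 4.11e-05, limma adjusted p = 0.342). SCARNA12 followed with -0.96 ± 0.19 (unadjusted p = 4.66e-05), and SCARNA5 and SCARNA6 had the largest sizes in the negative direction, -1.87 ± 0.43 and -1.69 ± 0.40. Of 23 measured SCARNA genes, 19 were negative, with a median of -0.21, against 7487 of 14884 genes and -0.0012 over all (49.7% of all genes were positive). An unadjusted p under 0.05 was reached by 7 of the 23, all of them negative (3.02% of all genes), and none passed after adjustment. The 23 were read on the same arrays and are not separate observations. Their mean level differed between arrays of 1 group, from 6.86 to 7.36 within pomalidomide alone.

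The levels by array show where these values came from. Without dexamethasone, SCARNA5 lay at 6.88, 8.51 and 7.01 in control, 9.06, 9.24 and 8.68 with filanesib, 9.03, 8.71 and 10.29 with pomalidomide and 7.07, 7.37 and 7.31 with both. With dexamethasone it lay at 9.41, 8.58 and 7.99 with dexamethasone alone, 8.75, 8.36 and 7.52 with filanesib added, 7.51, 8.43 and 7.83 with pomalidomide added and 8.04, 7.08 and 6.95 in the triple combination. In the first set every array of filanesib or pomalidomide lay above every array of control, and the 3 arrays of the pair lay below all 6 single-drug arrays and within the range of control. In the second set the groups overlapped, with the triple combination reaching the lowest values. SCARNA10 lay at 8.40, 9.14 and 8.49 in control, 9.34, 10.35 and 9.74 with filanesib, 10.59, 10.18 and 10.94 with pomalidomide and 9.46, 9.59 and 9.31 with both in the absence of dexamethasone. Beside dexamethasone it lay at 10.44, 9.98 and 9.92 with dexamethasone alone, 10.02, 9.68 and 9.57 with filanesib added, 9.69, 10.10 and 9.83 with pomalidomide added and 9.57, 9.55 and 9.34 in the triple combination. Control was again below both single drugs, and the pair lay above control here and overlapped filanesib alone.

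SCARNA12 and SCARNA6 had group means in the order of SCARNA10: control, the pair, filanesib, pomalidomide. SCARNA12 lay at 9.76, 10.25 and 9.72 in control, 10.50, 11.35 and 11.02 with filanesib, 10.99, 10.73 and 11.40 with pomalidomide and 10.34, 10.65 and 10.40 with both, and beside dexamethasone at 11.22, 10.65 and 10.89 with dexamethasone alone, 10.51, 10.54 and 10.58 with filanesib added, 10.77, 10.85 and 10.68 with pomalidomide added and 10.27, 10.12 and 9.88 in the triple combination. Its triple combination lay below every other group that received dexamethasone. SCARNA6 lay at 6.53, 7.35 and 6.15 in control, 7.78, 8.63 and 8.29 with filanesib, 8.82, 8.74 and 9.82 with pomalidomide and 7.21, 7.42 and 7.29 with both, and beside dexamethasone at 9.21, 8.10 and 8.06 with dexamethasone alone, 8.46, 7.98 and 7.36 with filanesib added, 6.90, 8.59 and 7.78 with pomalidomide added and 7.80, 7.14 and 6.71 in the triple combination. Its pair lay below all 6 single-drug arrays and overlapped control. Beside dexamethasone neighbouring groups overlapped, and the triple combination lay below dexamethasone alone.

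**Figure D2:**
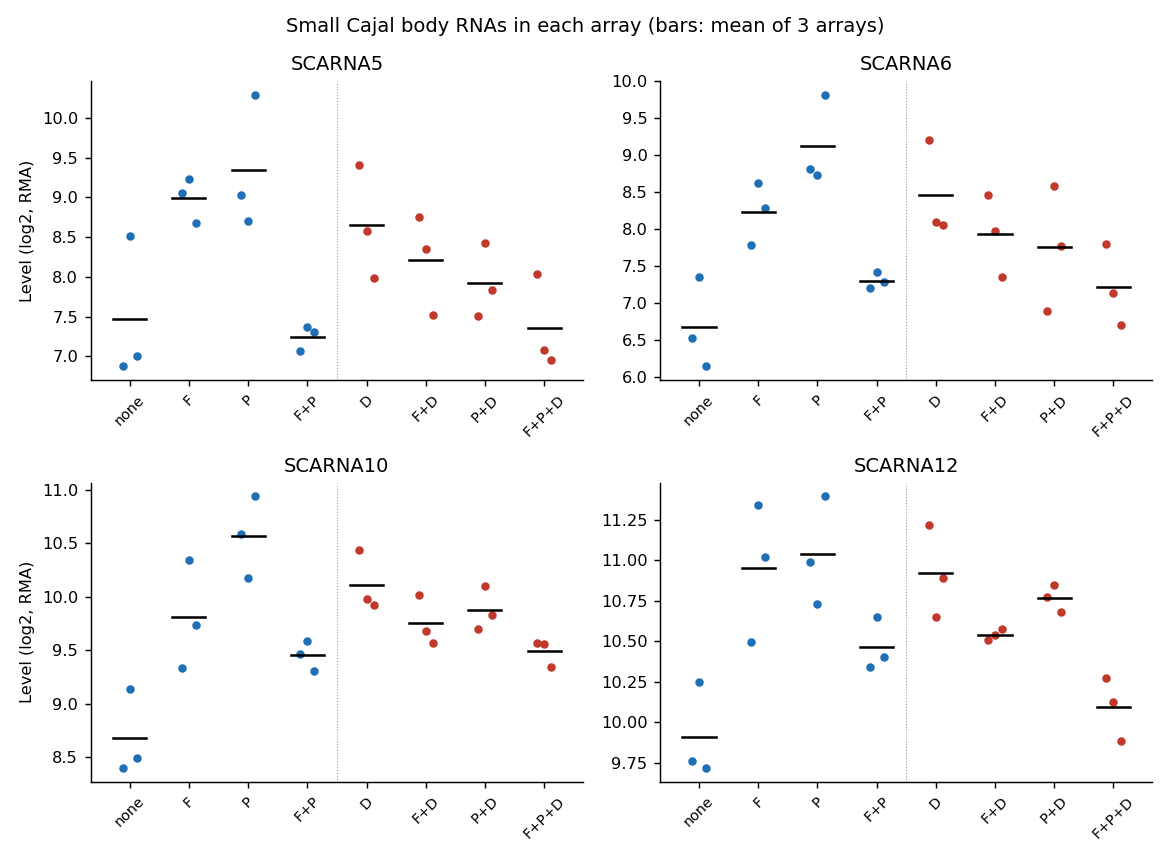
Level (log2, RMA) of 4 small Cajal body RNAs in each of 24 arrays, by group (F filanesib, P pomalidomide, D dexamethasone); points are arrays, bars the mean of 3, blue without and red with dexamethasone. In each panel the control arrays are low and the arrays of filanesib or pomalidomide alone high, with the pair below pomalidomide alone. With dexamethasone the triple combination has the lowest mean.

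The negative interaction of these RNAs lay in the arrays without dexamethasone. There limma called 4 genes (0.0269%), all negative: SCARNA10 (-2.25 ± 0.32, adjusted p = 0.00505), SCARNA12 (-1.62 ± 0.27), SCARNA5 (-3.62 ± 0.61) and SCARNA6 (-3.37 ± 0.57), the last 3 at an adjusted p of 0.0168. With dexamethasone the same genes had values of -0.027, -0.30, -0.11 and -0.013. The median over the 23 SCARNA genes was -0.63 without and -0.00039 with dexamethasone. SCARNA3 (-2.45 without and 0.57 with dexamethasone) and SCARNA1 (-3.13 without and 1.56 with dexamethasone) had opposite signs. The difference between the interactions with and without dexamethasone, tested over all genes, called 0 genes in limma (927, or 6.23%, at an unadjusted p under 0.05; adjusted p = 0.413 for SCARNA10 and 0.413 for SCARNA1), so it was not shown that dexamethasone changed the interaction. Only SCARNA10 was left of the 4 without any 1 of control replicates 1 and 3, filanesib replicates 2 and 3, pomalidomide replicate 3, and replicates 1 and 3 of filanesib plus pomalidomide. SCARNA10 was itself lost in a fit to only the arrays of this contrast (limma adjusted p = 0.0595) and with a minimum change of 1.5-fold (adjusted p = 0.141). Without filanesib replicate 1, SCARNA5 alone was lost (adjusted p = 0.0614). Without pomalidomide replicate 2 the count was 152, and 0 without both pomalidomide replicates 1 and 3.

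The hosts of SCARNA5, SCARNA6 and SCARNA12 had small interactions, and no host of SCARNA10 was examined. ATG16L1, an autophagy gene whose introns hold SCARNA5 and SCARNA6, had an interaction of -0.16 ± 0.21 (0.098 without and -0.41 with dexamethasone). PHB2, the prohibitin gene that hosts SCARNA12, had -0.0022 ± 0.11 (0.026 without and -0.030 with dexamethasone), a value so near 0 that median centring gave 0.0062. Both were chosen after their values were seen.

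BCL2L11 had the smallest p among the measured pro-apoptotic genes of the BCL2 family. It encodes BIM, which binds and neutralises the survival proteins of the BCL2 family. Without dexamethasone it lay at 6.62, 7.00 and 7.21 in control, 6.64, 7.00 and 6.49 with filanesib, 6.86, 7.06 and 6.47 with pomalidomide and 7.23, 7.13 and 7.35 with both. With dexamethasone it lay at 6.80, 7.21 and 7.81 with dexamethasone alone, 7.27, 6.92 and 6.79 with filanesib added, 7.54, 6.95 and 7.22 with pomalidomide added and 7.59, 7.51 and 7.58 in the triple combination. The pair was above all 6 arrays of either drug alone and overlapped control. The triple combination was above every array of filanesib plus dexamethasone, and 1 array each of the other groups with dexamethasone fell within or above its range.

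Filanesib went with lower BCL2L11 where pomalidomide was absent (-0.26 ± 0.15) and with higher BCL2L11 where it was present (0.38 ± 0.15), neither past the threshold. The interaction was 0.64 ± 0.21, with a 95% confidence interval of 0.20 to 1.08, and was alike in both sets of arrays (0.67 without and 0.61 with dexamethasone). It did not pass over all genes (unadjusted p = 0.00593, limma adjusted p = 0.612), and omission of single arrays moved it between 0.51 and 0.76. Its relatives did not share it: BMF, which releases BAX and BAK in the same way, had 0.10 ± 0.14, and PMAIP1, which encodes NOXA, 0.12 ± 0.18. Of 14 measured pro-apoptotic genes of the family 6 were positive, with a median of -0.024. The survival genes BCL2 (0.32 ± 0.18), MCL1 (0.17 ± 0.12) and the kinase PIM1 (0.29 ± 0.14) were positive too, with 6 of 11 in that list.

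**Figure D3:**
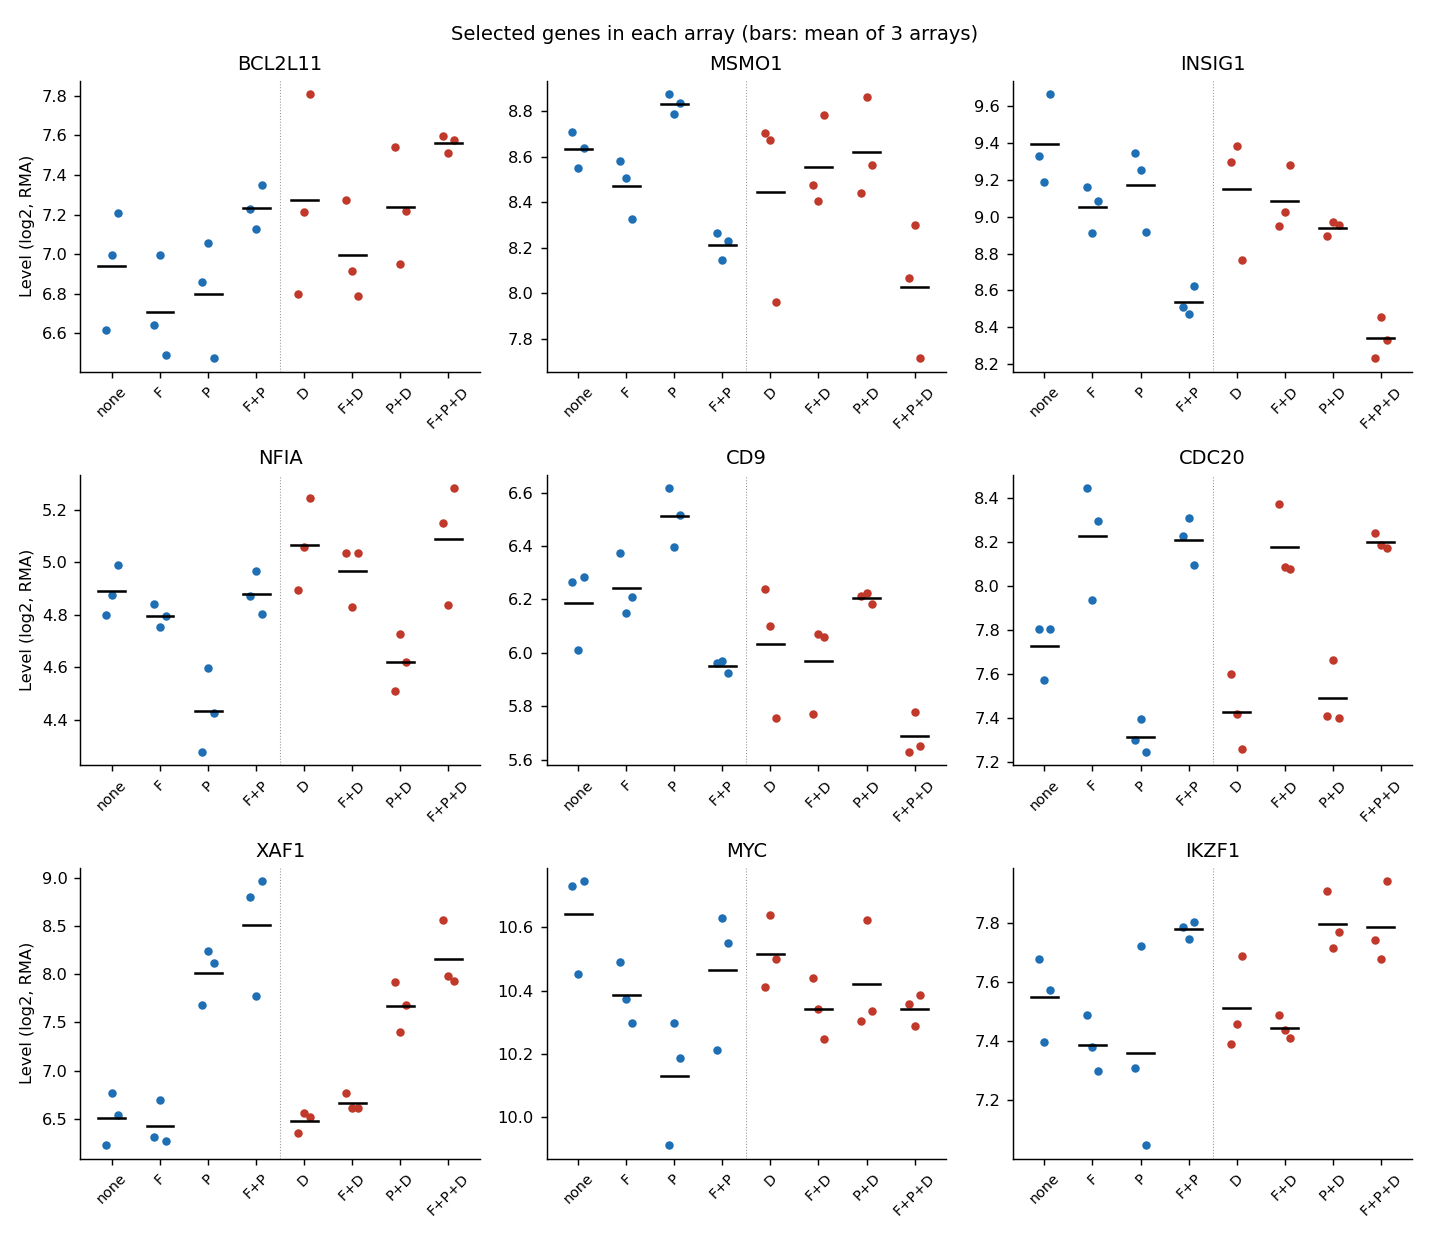
Level (log2, RMA) of 9 genes in each array, by group (F filanesib, P pomalidomide, D dexamethasone); points are arrays, bars the mean of 3, blue without and red with dexamethasone, each panel on its own scale. Within each set, without or with dexamethasone, BCL2L11 has its highest mean where filanesib and pomalidomide are combined, MSMO1, INSIG1 and CD9 their lowest, while NFIA dips with pomalidomide unless filanesib is present.

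Spindle and mitotic genes were higher with filanesib in both settings, and their interaction was small. Of 34 measured members, 23 rose beside pomalidomide (0.732% of all genes) and 1 in its absence, with medians of 0.56 and 0.48. Their averaged interaction had a median of 0.12, with 26 of 34 positive and 0 called. The median was 0.18 without and 0.023 with dexamethasone, where 19 of 34 were positive. CDC20 lay at 7.80, 7.57 and 7.80 in control, 8.45, 7.94 and 8.30 with filanesib, 7.30, 7.40 and 7.25 with pomalidomide and 8.23, 8.31 and 8.10 with both, and beside dexamethasone at 7.60, 7.42 and 7.26 with dexamethasone alone, 8.37, 8.09 and 8.08 with filanesib added, 7.41, 7.66 and 7.40 with pomalidomide added and 8.24, 8.19 and 8.17 in the triple combination. Every array with filanesib was above every array without it, and the pair overlapped filanesib alone. Its interaction was 0.18 ± 0.13 (0.40 without and -0.044 with dexamethasone).

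The checkpoint kinase BUB1 had 0.19 ± 0.13, the mitotic kinase PLK1 0.26 ± 0.14 and the drug's target KIF11 0.14 ± 0.20. KIF15, a motor that can take over part of this work, had 0.055 ± 0.18. Cyclin B1, CCNB1, which drives entry into mitosis, was negative at -0.30 ± 0.21. The smallest p in the list were those of INCENP (0.39 ± 0.16, unadjusted p = 0.0231) and CDCA8 (0.37 ± 0.16, unadjusted p = 0.0279), both of the chromosomal passenger complex that corrects attachments to the spindle. Both values lay mostly in the arrays without dexamethasone (INCENP 0.64 ± 0.23 without and 0.13 ± 0.23 with, CDCA8 0.69 ± 0.22 without and 0.050 ± 0.22 with). Without dexamethasone INCENP lay at 6.97, 6.87 and 7.27 in control, 7.21, 6.78 and 7.39 with filanesib, 6.34, 6.93 and 6.30 with pomalidomide and 7.31, 7.37 and 7.10 with both. Pomalidomide alone held the 2 lowest arrays, and both groups with filanesib overlapped control. NUMA1, which anchors microtubules at the spindle poles and was in the list of microtubule regulators, had 0.44 ± 0.12 and had its lowest mean with pomalidomide alone (6.59, 6.86 and 6.55, against 7.11, 7.02 and 7.37 in control). Cyclin F, CCNF, which degrades proteins in G2, had 0.32 ± 0.17, with opposite signs in the 2 sets of arrays (0.72 without and -0.085 with dexamethasone).

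Pomalidomide lowered replication and G1/S genes, 15 of 28 in the absence of filanesib (0.8% of all genes) and 7 beside it (0.43%). The medians were -0.43 and -0.33, and the averaged interaction had a median of 0.10 with 21 of 28 positive. Its sign was not the same in both sets of arrays, at 0.32 without and -0.093 with dexamethasone. The replication initiator MCM10 had 0.15 ± 0.15 and lay at 6.57, 6.25 and 6.64 in control, 6.70, 6.22 and 6.80 with filanesib, 5.98, 6.05 and 5.58 with pomalidomide and 6.10, 6.37 and 6.22 with both in the arrays without dexamethasone. Both groups with pomalidomide were below control apart from 1 array of the pair within its range, and those of pomalidomide alone were the lowest. The licensing factor CDT1 had 0.33 ± 0.15 (0.69 without and -0.031 with dexamethasone). Neither interaction passed.

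The interferon response was raised by pomalidomide whether or not filanesib was given. Of 33 measured genes, 12 rose in the absence of filanesib (0.564% of all genes) and 19 beside it (0.746%), with medians of 0.45 and 0.64. The averaged interaction had a median of 0.16, alike without (0.11) and with (0.15) dexamethasone, and 25 of 33 were positive with 0 called. XAF1, an interferon-induced antagonist of XIAP, lay at 6.22, 6.77 and 6.54 in control, 6.31, 6.70 and 6.26 with filanesib, 7.68, 8.25 and 8.11 with pomalidomide and 8.80, 7.78 and 8.97 with both, and beside dexamethasone at 6.36, 6.56 and 6.52 with dexamethasone alone, 6.76, 6.61 and 6.61 with filanesib added, 7.92, 7.40 and 7.68 with pomalidomide added and 8.57, 7.99 and 7.93 in the triple combination. Every array with pomalidomide was above every array without it, and the pair overlapped pomalidomide alone, while the triple combination lay just above pomalidomide plus dexamethasone. Its interaction of 0.45 ± 0.23 had a 95% confidence interval of -0.035 to 0.93.

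Individual interferon genes differed in sign and were imprecise. The antiviral GTPase MX2 had 0.64 ± 0.30, the translation inhibitor SAMD9L 0.40 ± 0.15 and IFI44 0.41 ± 0.25. SAMD9L differed from the others in that pomalidomide in the absence of filanesib left it at 0.0038 ± 0.11, against 0.40 ± 0.11 beside filanesib. The chemokine CXCL10 stood at -0.49 ± 0.45, which became -0.11 without dexamethasone replicate 3 and -0.79 without dexamethasone replicate 1. The viral RNA sensor IFIT1 stood at -0.067 ± 0.43, a value that turned positive with array weights (0.27). CD68, a lysosomal protein used as a macrophage marker, rose with pomalidomide by about the same amount without (1.02 ± 0.13) and with (0.96 ± 0.13) filanesib.

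Genes in the list of cereblon and its substrates had interactions of both signs. The list also holds genes that are not targets of drug-bound cereblon, such as IRF4 and MYC. Of 13 measured members 8 were positive and 0 called, with a median of 0.10 (0.24 without and 0.045 with dexamethasone). IKZF1 lay at 7.68, 7.40 and 7.58 in control, 7.49, 7.38 and 7.30 with filanesib, 7.31, 7.72 and 7.05 with pomalidomide and 7.79, 7.75 and 7.81 with both. Filanesib or pomalidomide alone reached lower arrays than control, and the 3 arrays of the pair were higher than all of these. Beside dexamethasone it lay at 7.39, 7.46 and 7.69 with dexamethasone alone, 7.49, 7.44 and 7.41 with filanesib added, 7.91, 7.72 and 7.77 with pomalidomide added and 7.74, 7.68 and 7.94 in the triple combination, where both groups with pomalidomide overlapped. Its interaction was 0.32 ± 0.13 (unadjusted p = 0.0241), and that of IKZF3, whose levels lay below the median gene, 0.40 ± 0.20.

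MYC, a transcription factor that drives growth in myeloma, had 0.34 ± 0.13 (unadjusted p = 0.0131; 0.59 without and 0.097 with dexamethasone). It lay at 10.73, 10.45 and 10.75 in control, 10.49, 10.37 and 10.30 with filanesib, 9.91, 10.30 and 10.19 with pomalidomide and 10.21, 10.63 and 10.55 with both without dexamethasone. Each single drug was lower than control apart from 1 filanesib array above the lowest control array, and the pair overlapped control. Beside dexamethasone it lay at 10.41, 10.64 and 10.50 with dexamethasone alone, 10.44, 10.34 and 10.25 with filanesib added, 10.30, 10.62 and 10.34 with pomalidomide added and 10.36, 10.29 and 10.39 in the triple combination, with the triple combination below dexamethasone alone and the other groups overlapping both. The plasma cell factor IRF4 had 0.20 ± 0.23, which became -0.030 without pomalidomide replicates 1 and 3. MYB, a progenitor transcription factor, fell with pomalidomide in both settings (-0.90 without and -0.71 with filanesib) and had 0.19 ± 0.22. CRBN, cereblon itself, was negative at -0.23 ± 0.11, with opposite signs in the arrays without (-0.61) and with (0.15) dexamethasone.

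**Figure D4:**
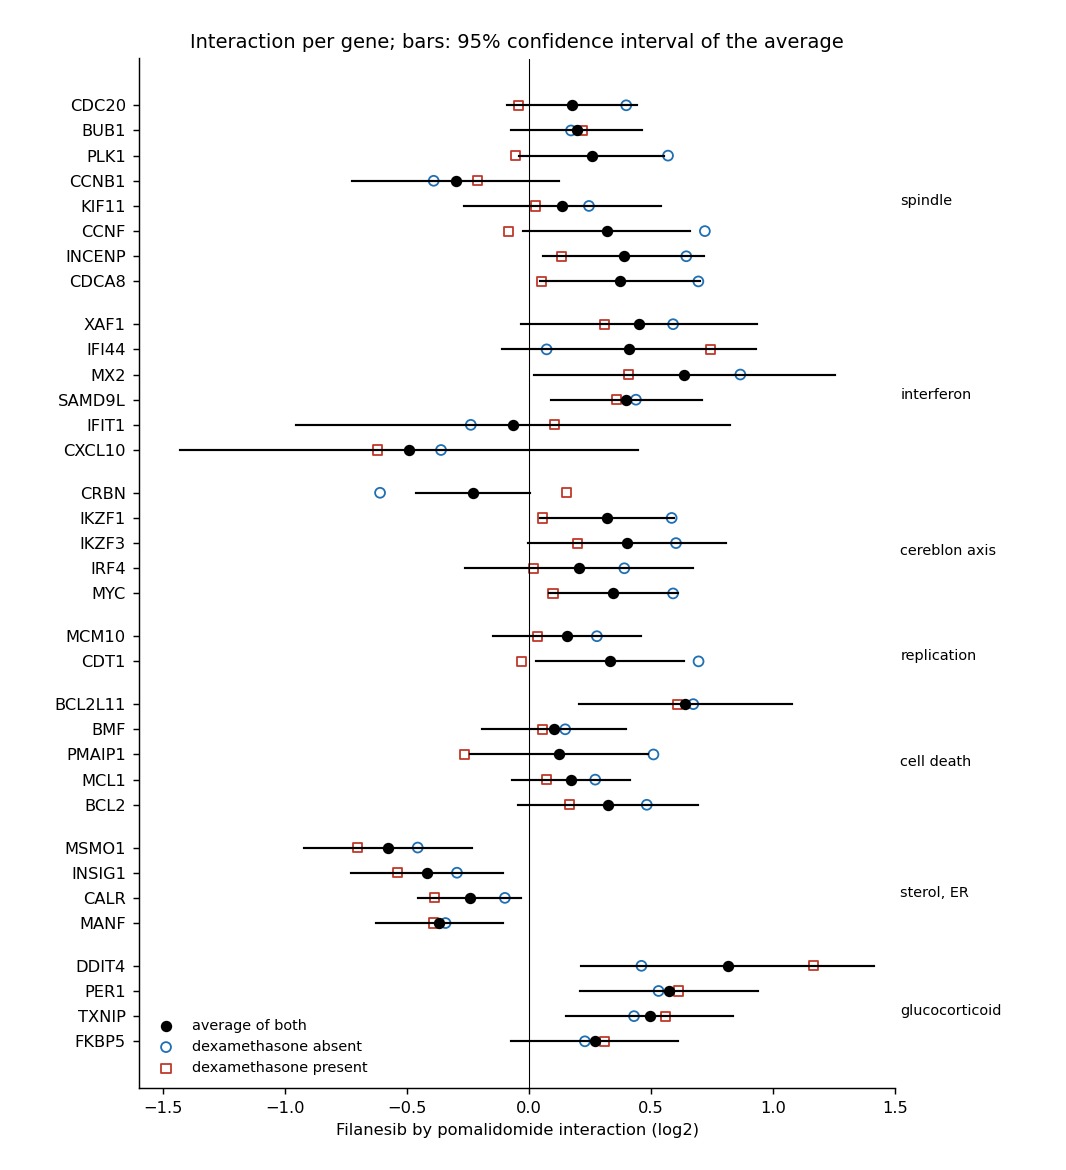
Filanesib by pomalidomide interaction (log2) of 34 genes in 7 groups. Filled points are the average with its 95% confidence interval as a bar, blue circles the arrays without and red squares the arrays with dexamethasone. BCL2L11, PER1, MANF and MSMO1 have both estimates on the same side, whereas CCNF, CDT1 and CRBN have their larger value without dexamethasone and the opposite sign with it.

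Sterol genes had mostly negative averaged interactions, with MSMO1 and INSIG1 lowest in the combinations. MSMO1, a demethylase of cholesterol synthesis, lay at 8.71, 8.55 and 8.64 in control, 8.58, 8.51 and 8.33 with filanesib, 8.87, 8.79 and 8.84 with pomalidomide and 8.26, 8.15 and 8.23 with both. With dexamethasone it lay at 8.70, 8.67 and 7.96 with dexamethasone alone, 8.47, 8.40 and 8.78 with filanesib added, 8.44, 8.86 and 8.57 with pomalidomide added and 8.07, 8.30 and 7.71 in the triple combination. The pair was below every array of control and of either drug in the first set, and in the second set the triple combination was below the groups of both pairs and overlapped dexamethasone alone. The interaction was -0.58 ± 0.17 (unadjusted p = 0.00202, limma adjusted p = 0.612), with -0.46 without and -0.70 with dexamethasone.

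INSIG1, which holds the sterol sensor in the endoplasmic reticulum and is itself induced by that pathway, lay at 9.33, 9.19 and 9.67 in control, 9.16, 8.91 and 9.08 with filanesib, 9.35, 9.26 and 8.92 with pomalidomide and 8.51, 8.47 and 8.62 with both. Beside dexamethasone it lay at 9.30, 9.38 and 8.77 with dexamethasone alone, 8.95, 9.03 and 9.28 with filanesib added, 8.89, 8.97 and 8.95 with pomalidomide added and 8.23, 8.46 and 8.33 in the triple combination. The combinations were below every other array in both sets. INSIG1 fell with filanesib beside pomalidomide (-0.62 ± 0.11, limma adjusted p = 0.00518), against -0.20 ± 0.11 without it. With pomalidomide beside filanesib it fell too (-0.63 ± 0.11, limma adjusted p = 0.00318), against -0.22 ± 0.11 without filanesib. The gap between the settings is the same quantity for both drugs, the interaction of -0.42 ± 0.15, which did not pass. Of 21 measured genes of cholesterol and fatty acid synthesis 17 were negative, with a median of -0.16 (-0.0076 without and -0.27 with dexamethasone). With dexamethasone 0 of 21 were positive, beside 46% of all genes.

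Chaperones of the endoplasmic reticulum leaned the same way. Of 11 measured genes 2 were positive and 0 called, with a median of -0.15. Calreticulin, CALR, an abundant folding chaperone, had -0.24 ± 0.10, and the stress-induced secreted factor MANF -0.37 ± 0.13 (-0.34 without and -0.39 with dexamethasone). CALR lay at 11.30, 11.31 and 11.14 in the triple combination, below every array of the pairs with dexamethasone (11.44, 11.64 and 11.64 with filanesib, 11.42, 11.53 and 11.56 with pomalidomide), and overlapped dexamethasone alone. All 9 measured genes of oxidative phosphorylation were negative, with a median of -0.18, and 0 reached an unadjusted p under 0.05.

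Targets of the glucocorticoid receptor had mostly positive interactions in the arrays without dexamethasone as well as in those with it. Of 15 measured members 11 were positive, with a median of 0.22 (0.24 without, 0.22 with dexamethasone), and 0 were called. The mTOR inhibitor DDIT4 had 0.81 ± 0.29, the circadian repressor PER1 0.57 ± 0.18 (unadjusted p = 0.00363) and the glucose uptake regulator TXNIP 0.49 ± 0.17. FKBP5, the chaperone most used as a readout of the receptor, had 0.27 ± 0.17. Its mean with dexamethasone alone, 5.456, was not above that of control, 5.475. It lay at 5.70, 6.09 and 5.81 in the triple combination, above every array of dexamethasone alone (5.30, 5.44 and 5.63) and of pomalidomide plus dexamethasone (5.28, 5.50 and 5.31). The triple combination overlapped filanesib plus dexamethasone (5.69, 5.51 and 5.74). PER1 lay at 6.22, 6.05 and 6.42 in control, 5.82, 6.08 and 5.92 with filanesib, 6.14, 6.48 and 5.81 with pomalidomide and 6.33, 6.37 and 6.43 with both. Filanesib alone was below the pair in every array, and control and pomalidomide alone overlapped the pair. With dexamethasone alone PER1 lay at 6.22, 6.14 and 7.02. Omission of the last of these arrays, dexamethasone replicate 3, lowered its averaged interaction to 0.43. TXNIP lay at 9.42, 9.62 and 9.51 in control, 9.28, 9.11 and 9.26 with filanesib, 9.69, 9.17 and 9.09 with pomalidomide and 9.28, 9.36 and 9.71 with both, with every array of filanesib alone below every control array and the pair overlapping both.

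The 30 genes with the smallest p, 15 in each direction, were a mixed group. All 30 had the same sign with and without dexamethasone, which the choice by a common average favours, and 21 were larger in size without dexamethasone. In 20 of them pomalidomide alone was the group at the end opposite to the sign of the interaction. The choice favours that too, because pomalidomide alone enters the contrast with a negative weight and its arrays were the most variable. The share to expect from this was not tested. NFIA, a transcription factor of nuclear factor I, had 0.56 ± 0.12 (unadjusted p = 0.000129). It lay at 4.80, 4.88 and 4.99 in control, 4.84, 4.75 and 4.79 with filanesib, 4.28, 4.60 and 4.42 with pomalidomide and 4.87, 4.96 and 4.80 with both, and beside dexamethasone at 4.90, 5.06 and 5.25 with dexamethasone alone, 5.03, 4.83 and 5.03 with filanesib added, 4.51, 4.73 and 4.62 with pomalidomide added and 5.15, 4.84 and 5.28 in the triple combination. Pomalidomide in the absence of filanesib held the lowest arrays in both sets, and the fall with pomalidomide in that setting passed (-0.45 ± 0.086, limma adjusted p = 0.00762), against 0.10 ± 0.086 beside filanesib.

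CD9, a tetraspanin of the cell surface that is variable in myeloma, had -0.54 ± 0.12 (unadjusted p = 0.000175). It lay at 6.27, 6.01 and 6.28 in control, 6.37, 6.15 and 6.21 with filanesib, 6.62, 6.40 and 6.52 with pomalidomide and 5.96, 5.97 and 5.92 with both, and beside dexamethasone at 6.24, 6.10 and 5.76 with dexamethasone alone, 5.77, 6.07 and 6.06 with filanesib added, 6.21, 6.23 and 6.18 with pomalidomide added and 5.63, 5.78 and 5.65 in the triple combination. The combinations were below every other group without dexamethasone, and beside dexamethasone they overlapped dexamethasone alone and filanesib plus dexamethasone. VMP1, which builds autophagosome membranes, had -0.54 ± 0.11 and lay at 9.60, 9.48 and 9.69 in control, 10.01, 9.66 and 10.04 with filanesib, 10.11, 9.82 and 10.09 with pomalidomide and 9.60, 9.52 and 9.56 with both. Both single drugs reached above control and the pair was within its range. MIR21, the oncogenic microRNA gene that lies at the end of VMP1, had -0.41 ± 0.15; its probes can share transcript with VMP1, so its value is uncertain, and it was chosen after its values were seen.

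Other named genes had positive values. CABLES1, an adaptor of cell cycle kinases, had 0.55 ± 0.13 and the Rac activator TIAM1 0.50 ± 0.13. DAPK1, a kinase that promotes cell death, had 0.64 ± 0.16 and fell with pomalidomide in the absence of filanesib (-0.77 ± 0.12, limma adjusted p = 0.00124), against -0.13 ± 0.12 beside it. The corepressor RERE had 0.51 ± 0.12. Negative values were those of the secreted chaperone clusterin, CLU (-0.69 ± 0.18), and the heme exporter FLVCR1 (-0.53 ± 0.12). LIX1L, a relative of LIX1, had 0.54 ± 0.14 and rose with pomalidomide beside filanesib (0.64 ± 0.099, limma adjusted p = 0.0014), against 0.10 ± 0.099 without it. DAPK1 and LIX1L were chosen by the averaged interaction too, which favours such a gap between settings.

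The 30 included 4 microRNA genes. MIR3135A had 1.31 ± 0.30, the largest positive value, MIR544B 1.13 ± 0.25, MIR4453 0.70 ± 0.16 and MIR892A -0.64 ± 0.13. MIR892A lay at 3.46, 3.15 and 3.19 with pomalidomide alone, above all other arrays. These probe sets read precursors, and MIR892A and MIR544B lay near the low end of the scale. Over all 1088 measured microRNA genes the median was -0.022, with 44.8% positive beside 49.7% of all genes.

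Several surface genes of plasma cells and the B lineage had negative values, while the plasma cell list as a whole was evenly split. SLAMF7, the target of the antibody elotuzumab, had -0.42 ± 0.12 (-0.43 without and -0.41 with dexamethasone), and CD48, a receptor of the same family, -0.46 ± 0.13. SLAMF7 lay at 9.16, 9.19 and 9.31 in control, 9.42, 9.37 and 9.38 with filanesib, 9.40, 9.54 and 9.55 with pomalidomide and 9.19, 9.21 and 9.31 with both, and beside dexamethasone at 9.12, 9.44 and 8.83 with dexamethasone alone, 9.21, 9.33 and 9.13 with filanesib added, 9.33, 9.24 and 9.38 with pomalidomide added and 9.16, 8.94 and 8.89 in the triple combination. Filanesib or pomalidomide alone was above control in every array, and the pair lay within the range of control. The triple combination reached below both pairs with dexamethasone and overlapped dexamethasone alone. CD48 fell with pomalidomide beside filanesib (-0.54 ± 0.095, limma adjusted p = 0.00403), against -0.083 ± 0.095 without it. The tetraspanin CD53 fell with filanesib beside pomalidomide (-0.36 ± 0.078, limma adjusted p = 0.0216), against -0.049 ± 0.078 without it, and had an interaction of -0.32 ± 0.11. CD48 and CD53 were named for a small p of the interaction within their lists, which favours such gaps. Of 13 measured B-lineage and myeloid receptors 2 were positive. Of the 16 plasma cell genes 8 were, with a median of 0.014. Among them were the surface proteins CD38 (0.082 ± 0.099) and NCAM1 (0.22 ± 0.17). MAF had the smallest p of the positive members (0.33 ± 0.12, limma unadjusted p = 0.00934). CD38, NCAM1 and MAF were chosen outside the rule for naming genes. AMPD1, the muscle-type AMP deaminase, fell with pomalidomide in both settings (-1.22 and -1.13) and had 0.091 ± 0.30, with the opposite sign under array weights (-0.071).

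The interactions without and with dexamethasone, which share no array, had little in common across genes. Pearson's r across 14884 genes was 0.058 and Spearman's rho 0.045, and 51.2% of genes had the same sign. The estimates had an SD over genes of 0.28 without and 0.20 with dexamethasone, beside a median SE of 0.20 for each. With estimates this imprecise, a low correlation does not show that the interactions differed. Of the 100 genes with the smallest p for the interaction without dexamethasone, 54 had the same sign with it. Their median size was 0.72 in the first set and 0.0058, counted in the same direction, in the second. Of the 100 genes with the smallest p for the interaction with dexamethasone, 57 had the same sign without it. Without dexamethasone 1571 genes had an unadjusted p under 0.05 (10.6%). With it 427 did (2.87%), and limma called 0. The levels of pomalidomide alone, whose arrays were the most variable of the series, enter only the estimates without dexamethasone. Their spread enters the standard errors of both interactions, because the residual variance of each gene was pooled over all groups. In a fit to only the 12 arrays of each set the numbers were 1233 and 517, and without replicates 1 and 3 of pomalidomide alone 820 and 584.

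**Figure D5:**
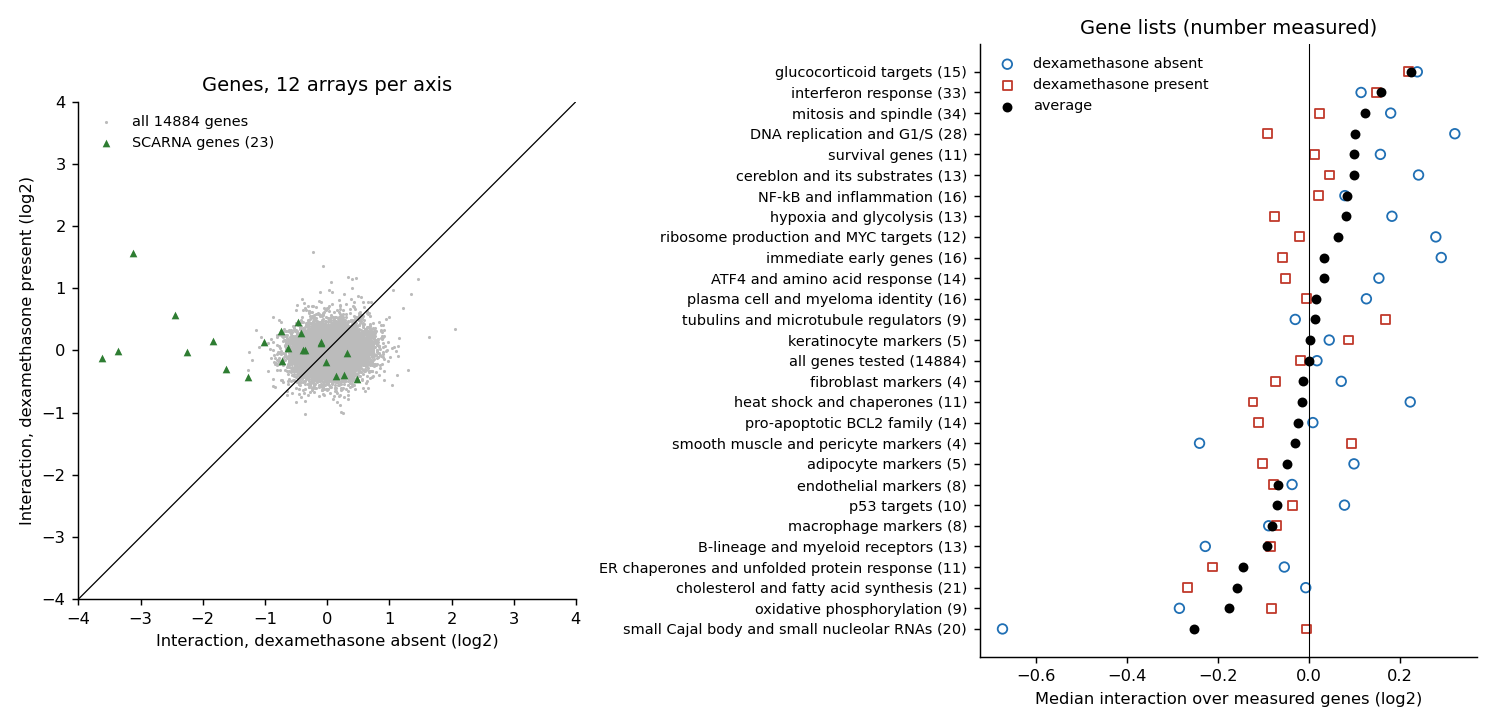
Left, each of 14884 genes at its interaction (log2) without (x) and with (y) dexamethasone, with the diagonal marking equality. SCARNA genes (green) spread along x. Along y their median is -0.00039, with 11 of 23 above 0 and SCARNA1 the farthest from 0. Right, the median interaction over the measured genes of 27 lists, with all genes for reference, as the average (black) and without (blue) and with (red) dexamethasone. Glucocorticoid targets and interferon genes lie to the right in all 3, and oxidative phosphorylation genes to the left. Sterol genes lie to the left in the average and with dexamethasone, and at about 0 without it.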

How the data were processed

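RNA of the tumour samples was hybridised to 24 Affymetrix arrays. The authors deposited log2 values for each probe set. Per the submitters' processing notes the tools were RMA and Affymetrix Expression Console, with the version not given in the sources used here. RMA gives all arrays 1 distribution and so hides any shift common to most genes. Symbols came from the platform's annotation; 37519 probe sets without one were left out of tests by gene, and sequences and positions were not used here.

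Levels were fitted with limma 3.58.1 in R 4.3.3, with a mean per group over all 24 arrays and 16 residual degrees of freedom, moderated by eBayes. Tests were two-sided, with Benjamini-Hochberg adjustment over all 14884 genes. The procedure was checked on simulated data. Gene lists were described by counts and medians, without a test; of the lists, replication-dependent histones and the proteasome had 0 measured members and skeletal muscle 2, and the other 27 were described. Members and lists were chosen with earlier results of these data known. The genes named followed the rule given with the first results, apart from a few chosen outside it. Replicate numbers did not pair the arrays. Alternatives covered normalisation, filters, weights, probe sets, variance priors, restricted fits, a replicate block and omission of arrays; weights per group were chosen after seeing the data.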

Additional observations from a re-analysis of the deposited data

Results flagged for a closer look

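One probe set that the probe table does not name, 16659138, passed for the interaction without dexamethasone when every probe set was tested (-2.61, limma adjusted p = 0.0263 over all probe sets), and is listed because it lay outside the tests by gene. It lay at 5.74, 6.24 and 5.64 in control, 6.77, 7.55 and 7.84 with filanesib, 7.90, 7.50 and 7.61 with pomalidomide and 6.70, 6.44 and 6.56 with both. With dexamethasone it lay at 7.99, 7.67 and 8.40 with dexamethasone alone, 7.50, 6.77 and 6.82 with filanesib added, 6.42, 6.65 and 6.39 with pomalidomide added and 6.10, 6.42 and 5.82 in the triple combination. Without dexamethasone both single drugs were above control and above the pair, the order seen for SCARNA10. With dexamethasone its interaction was 0.61, and the difference between the interactions did not pass (3.23, adjusted p = 0.178).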

How the results depend on the processing

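Precision is limited by how many arrays there are, the median 95% confidence interval reaching 0.29 to either side of an averaged interaction on the log2 scale. The averaged interaction called 0 genes under every alternative and omission except array weights, which gave 1 (MIR4453, 0.81, adjusted p = 0.0487 in limma). Of 2457 gene values recomputed, 2388 kept direction and call, 38 lost a call, 1 gained one and 30 reversed, in PHB2, IFIT1, CD68, AMPD1 and, in 1 setting, IRF4 (0.20 in the main analysis). All 38 lost calls were of the 4 SCARNA genes called without dexamethasone. The other recomputed values were averaged interactions, which had no call to lose.

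For the interaction without dexamethasone, the count of 4 became 2 with a trended and robust prior, 2 over every probe set, 2 in a fit to its own arrays (SCARNA3 and SCARNA6), 0 for protein-coding genes only, where the called genes are not tested, 0 with a minimum change of 1.5-fold, 0 without pomalidomide replicates 1 and 3, and 1 with weights per group, and ranged from 1 to 152 when arrays were left out. With dexamethasone, and for the difference between the interactions, omissions gave 0 to 1 (MIR539 without dexamethasone replicate 3, SCARNA1 without filanesib plus dexamethasone replicate 1).

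For filanesib in the absence of pomalidomide the count of 1 became 2 with a further quantile normalisation, the robust prior, means over probe sets or no 3-drug term, 23 without dim genes, 109 with array weights, 3 over every probe set, 22 for protein-coding genes, 0 with a minimum change or its own arrays, 29 without pomalidomide replicates 1 and 3, and 26 with weights per group, and 0 to 54 on omissions. Beside pomalidomide, 129 became 41 over every probe set, 0 with a minimum change, 60 with its own arrays, 34 without those replicates and 64 with weights per group (60 to 330 on omissions). For pomalidomide, 203 became 0, 71, 20 and 82 under the last 4 of these settings (101 to 488). Beside filanesib, 175 became 798 with array weights, 2 with a minimum change (IFI44, XAF1), 312 with its own arrays, 292 without those replicates and 350 with weights per group (75 to 271). The cause of these shifts was not tested.

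Reversed values were those of PHB2 with median centring (0.0062), IFIT1 with array weights (0.27), CD68 with array weights (0.051) and on removal of pomalidomide replicates 1 and 3 (0.052), AMPD1 in the same settings (-0.071 and -0.12) and IRF4 without those replicates (-0.030). On omission of 1 array PHB2 ranged from -0.085 to 0.046, IFIT1 from -0.33 to 0.21, CD68 from -0.14 to 0.027 and AMPD1 from -0.12 to 0.21.

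Same-numbered arrays did not deviate together: over 84 pairs from different groups the correlation ran from -0.32 to 0.31, and 2 of 24 arrays correlated best with their own number. With a replicate block the counts were 0 for the averaged interaction, 4 without and 0 with dexamethasone, 0 for their difference, 1 and 107 for filanesib, and 164 and 165 for pomalidomide. The interactions could not be fitted apart in a model without a 3-drug term, and for the average and the difference a fit to their own arrays is the fit to all 24.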
